A study of Homo sapiens with 52 samples.

Results

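The 10 long noncoding RNAs followed here are known from stress or senescence, and their levels were read in WI-38 cells: LUCAT1, PURPL, NEAT1, MALAT1, MIR31HG, PVT1, CDKN2B-AS1, GAS5, SNHG1 and SNHG12. They were taken by their gene symbols, and all 10 were found among the 59408 genes that every table lists. LUCAT1 was chosen by its normalized read count on day 0 after KCl, where it rises strongly, so its KCl value on day 0 is given as a description and was not tested. The differences of the other members between KCl day 0 and untreated cells are likewise given without a test.

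WI-38 is a normal human embryonic fibroblast line with a limited replicative lifespan. Cells received 0.009% sodium dodecyl sulfate (SDS), which wounds the plasma membrane and leads to plasma membrane damage-dependent senescence (PMD-Sen). Others received 75 mM KCl, which leads to Ca2+ influx-dependent senescence (Ca2+-Sen), or 250 nM doxorubicin (DXR), which damages DNA and leads to DNA damage response-dependent senescence (DDR-Sen). Each treatment lasted 24 h, day 0 is the end of the treatment, and cells were collected then and on 7 later days up to day 16, daily to day 4 and afterwards on days 6, 8 and 16. Replicatively senescent (RS) cells had been passaged until they no longer divided, and the untreated control was a culture of young WI-38 cells. Every one of the 26 groups has 2 mRNA libraries, and the same 2 untreated libraries serve as the control for all treated groups and for RS. All groups share 1 cell line, and a single untreated group stands for all days, so time in culture and treatment cannot be told apart.

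Long noncoding RNAs are transcribed and often spliced like messenger RNAs but are not translated into a known protein. Several act in the nucleus: NEAT1 is the scaffold of paraspeckles, MALAT1 gathers at nuclear speckles, and CDKN2B-AS1 and MIR31HG have been linked to the repression of the INK4 cell cycle inhibitor locus. Others are known mainly as readouts of a pathway, such as PURPL, a p53 target that restrains p53, and LUCAT1, which the oxidative stress regulator NRF2 induces in airway cells. GAS5, SNHG1 and SNHG12 carry small nucleolar RNAs (snoRNAs) in their introns, and the spliced host RNA is what mRNA sequencing counts.

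For 8 members the RefSeq promoter table (GRCh38.p14) holds the 300 bases from 250 before to 50 after the start. The promoters of LUCAT1 and PURPL are shown because these are the members with the widest range of levels. LUCAT1 lies on the minus strand, and the window is chr5:91314353-91314652. The capitals mark an AP-1 site (TGANTCA) that shares its letters with the core of an antioxidant response element, the sequence bound by NRF2 and its partners (TGACNNNGC, here on the reverse strand). PURPL lies on the plus strand, and the window is chr5:27472042-27472341. Its capitals mark a pair of adjoining p53 half-sites of 10 bases.

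LUCAT1 promoter: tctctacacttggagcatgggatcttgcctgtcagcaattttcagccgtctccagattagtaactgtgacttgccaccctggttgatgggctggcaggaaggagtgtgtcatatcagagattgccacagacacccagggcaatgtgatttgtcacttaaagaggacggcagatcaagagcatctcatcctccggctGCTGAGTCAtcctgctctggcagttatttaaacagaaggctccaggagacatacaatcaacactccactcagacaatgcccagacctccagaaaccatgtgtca
PURPL promoter: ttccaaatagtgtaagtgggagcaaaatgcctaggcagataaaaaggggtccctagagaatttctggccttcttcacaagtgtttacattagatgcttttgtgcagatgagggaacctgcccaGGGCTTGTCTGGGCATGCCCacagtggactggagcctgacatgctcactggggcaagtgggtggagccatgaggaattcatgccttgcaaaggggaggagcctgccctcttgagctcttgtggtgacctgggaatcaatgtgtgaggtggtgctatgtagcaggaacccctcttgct

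The LUCAT1 match spans the bases 54 to 46 before the RefSeq start, with the AP-1 letters at 52 to 46. The LUCAT1 gene model begins further upstream, at 91314547 on the minus strand, so the match lies inside the model. Among 35116 promoters of the same length, searched on both strands, 7.71% hold AP-1 letters, 13.3% hold the antioxidant response element core, and 0.561% hold them overlapping as here. No other member has the AP-1 letters in its window, while the core letters also occur in the windows of CDKN2B-AS1 and MALAT1. The PURPL match spans the bases 127 to 108 before the start. A single p53 half-site occurs in 6.63% of the promoters, and 6 of them, or 0.0171%, hold the half-sites side by side. With a spacer of 0 to 13 bases between half-sites the count is 10, or 0.0285%. The short form of a cyclic AMP response element, TGACG, occurs in 24.6% of all promoters and in 4 of the 9 windows of the members, those of CDKN2B-AS1, MALAT1, MIR31HG and SNHG12. These are matches of letters, and no binding was measured.

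Many RNAs that feed the ribosome begin with a C followed by a run of pyrimidines, which ties them to growth signals. The first 50 bases from the RefSeq starts of SNHG12 (chr1:28581824-28581873), SNHG1 (chr11:62855836-62855885) and GAS5 (chr1:173868996-173869045), all on the minus strand, are shown because the members of this class are compared below, with the opening pyrimidines in capitals. MIR31HG holds the gene of microRNA 31, whose mature strand from RefSeq is added with its seed, bases 2 to 8, in capitals.

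SNHG12 start: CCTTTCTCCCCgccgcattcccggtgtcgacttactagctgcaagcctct
SNHG1 start: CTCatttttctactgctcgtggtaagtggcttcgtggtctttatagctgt
GAS5 start: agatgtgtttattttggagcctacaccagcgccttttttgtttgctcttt
hsa-miR-31-5p: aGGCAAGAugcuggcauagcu

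SNHG12 opens with 11 pyrimidines, SNHG1 with 3 and GAS5 with 0. All 50 GAS5 bases shown lie before its gene model, which begins at 173868882 on the minus strand. The SNHG12 and SNHG1 entries begin inside their models. These openings belong to the RefSeq entries and need not be those of the RNAs counted below. No contrast between the 3 members is drawn from them. A C and 4 further pyrimidines open 4.07% of the RefSeq promoters' transcripts. The RefSeq starts are not everywhere the ends of the gene models below, and where these cells begin transcription was not measured. The small RNAs themselves, microRNA 31 and the snoRNAs, were not analysed here.

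Values below are normalized read counts: reads of a library divided by its size factor, on the scale of a library of average depth. Reads per library were recovered from the deposited means, and within a group library 1 is the one with more reads. The untreated libraries held 18971753 and 15258997 reads, the fewest of any group, while treated and RS libraries held 19255505 to 55511868. Differences are on the log2(normalized count + 1) scale with their standard error (SE), tested with limma across 15607 genes and called at a Benjamini-Hochberg adjusted p under 0.05. All 10 members passed the filter on low values, a mean normalized count of at least 10. The 2 libraries of a group stand for separate samples in the study. P-values rest on 1 spread per gene, pooled over the library pairs of the groups whose reads could be divided between libraries. These are 11 of the 26 groups for MALAT1, 25 for NEAT1 and all 26 for the other members. A member therefore has the same SE in each comparison, whatever the gap between the libraries compared. All 9 fibroblast markers (among them COL1A1, VIM and PDGFRB) were detected at 875 or more in every group, but their levels moved. The summed level was 788000 in untreated cells and ran from 317000 on KCl day 0 to 825000 on KCl day 8. COL1A1 was at 363000 in untreated cells and 90600 on KCl day 0, and COL3A1 was at 36400 and, on SDS day 0, 4590. The 9 markers of epithelial, blood and endothelial cells together reached 55.4 to 259 beside 66.3 in untreated cells, with KRT5, CD3E and MS4A1 at a median of 0. The endothelial marker PECAM1 was at 141 on KCl day 0 beside 3.0 in untreated cells. The leukocyte marker PTPRC was at 17.9 to 26.6 in the 8 DXR groups beside 0 in untreated cells. The part of these markers in the members' differences was not tested. A lower value in such bulk samples can mean fewer cells with the RNA or less RNA per cell, which cannot be told apart.

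In all, 81 of the 240 differences between a member and untreated cells were called, 29 in PMD-Sen, 21 in Ca2+-Sen, 26 in DDR-Sen and 5 in RS. The counts follow day by day, each beside the share of all tested genes that was called in the same comparison. In PMD-Sen, 3 of 10 members were called on day 0, where 55.7% of all genes were, 4 on day 1 against 30.9%, and 3 on day 2 against 20.6%. Day 3 gave 5 members against 21.2%, day 4 gave 3 against 24.3%, and day 6 gave 4 against 31.0%. Days 8 and 16 gave 3 against 26.3% and 4 against 43.8%. The share of members called was below that of all genes on day 0 and above it on the other days except day 16, where it was lower. With 10 members a single call moves this share widely, and the 5 calls of day 3 became 1 with voom weights. The gaps are therefore not read as a result about the members.

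Day 0 of Ca2+-Sen was not tested. Day 1 gave 3 of 10 members against 16.7% of all genes, day 2 gave 1 against 5.30%, and day 3 gave 2 against 15.5%. On day 4 the count was 2 against 20.2%, on day 6 it was 3 against 26.9%, on day 8 it was 7 against 43.1%, and on day 16 it was 3 against 16.4%. Day 8 was the comparison with the most members called, and it added NEAT1, MALAT1, MIR31HG and SNHG12 to the LUCAT1, PURPL and SNHG1 of days 1, 6 and 16.

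In DDR-Sen, day 0 gave 4 members against 40.4% of all genes, day 1 gave 3 against 29.9%, day 2 gave 2 against 19.6%, and day 3 gave 2 against 21.5%. Day 4 gave 2 against 24.9%, day 6 gave 4 against 36.4%, day 8 gave 3 against 37.2%, and day 16 gave 6 against 47.0%. RS cells gave 5 of 10 members against 47.3%. In RS and on most DDR-Sen days the share of members called was therefore close to that of genes at large. On DXR day 16 it was above it, which is likewise not read as a result about the members. The members differed in direction: against untreated cells LUCAT1, PURPL, NEAT1 and PVT1 were called higher only and SNHG1 and SNHG12 lower only, while GAS5, MALAT1 and MIR31HG were called both ways and CDKN2B-AS1 was not called.

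**Figure D1:**
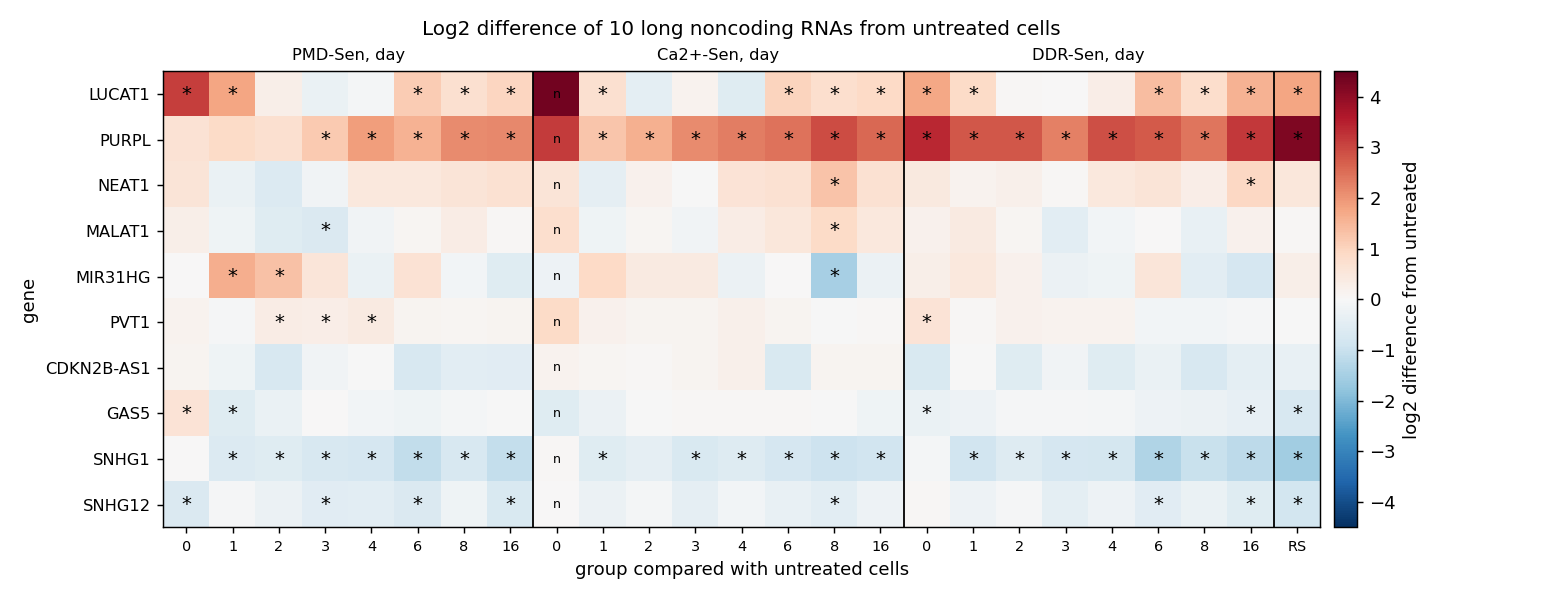
Log2 difference of each of the 10 members (rows) from untreated cells in the 24 tested groups and KCl day 0 (columns: day of each inducer, then RS). An asterisk marks an adjusted p under 0.05 and n a comparison that was not tested. The rows of LUCAT1 and PURPL are mostly red and that of SNHG1 is blue from day 1 on.

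LUCAT1 (ENSG00000248323.6) lies on chromosome 5, 91054834 to 91314547 on the minus strand of GRCh38, beside ARRDC3, and is annotated as an antisense RNA. It was at 49.0 and 48.1 in the untreated libraries (30 and 24 reads), and at 1100 and 929 on KCl day 0, the values for which it was picked. The KCl day 0 mean of 1020 is 20.9 times the untreated mean, a log2 difference of 4.35. SDS day 0 came second with 472 and 384, a difference of 3.11 (SE 0.24, adjusted p = 1.34e-12). DXR day 0 gave 199 and 138, a difference of 1.75 (SE 0.24, adjusted p = 4.39e-07). Every day 0 library thus lay above both untreated ones, and the SDS libraries lay above the DXR ones.

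The day 0 level did not last. In PMD-Sen LUCAT1 was at 150 and 185 on day 1 (difference 1.76, adjusted p = 1.51e-06), 52.2 and 64.3 on day 2, 36.2 and 43.1 on day 3, and 48.9 and 42.7 on day 4. In Ca2+-Sen it dropped from about 1020 to 69.3 and 92.0 on day 1 (difference 0.71, adjusted p = 0.0381) and to 33.0 and 38.0 on day 2. On KCl day 4 it stood at 30.4 and 35.0, the lowest group mean of all, a difference of -0.56 that was not called (adjusted p = 0.0954). None of the 9 comparisons on days 2, 3 and 4 was called, and the differences there ran from -0.56 to 0.29.

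LUCAT1 was higher on day 6 than on day 4 in each inducer, and its day 8 means of 80.9, 81.9 and 85.4 were lower than those of day 6. MIR31HG, too, had a higher mean on day 6 than on days 4 and 8 in each inducer. For days 4, 6 and 8 it had 299, 569 and 340 in PMD-Sen, 300, 364 and 129 in Ca2+-Sen, and 317, 529 and 262 in DDR-Sen. Whether the day 6 samples share a shift was not tested. The day 6 libraries held 96.8 and 122 in PMD-Sen, 89.6 and 107 in Ca2+-Sen and 145 and 116 in DDR-Sen, all above the untreated pair. The differences were 1.15, 1.00 and 1.40 (adjusted p = 0.000376, 0.00192 and 2.16e-05). On day 16 they were 0.98, 0.90 and 1.55 (adjusted p = 0.00111, 0.00843 and 2.58e-06), from 124 and 75.7, 99.3 and 84.3, and 154 and 136. RS cells held 157 and 183, a difference of 1.78 (SE 0.24, adjusted p = 2.34e-07). LUCAT1 was called higher in 15 of 24 comparisons in all, and lower in none, and with voom weights 9 of the 15 were called. The calls on day 1 of KCl and DXR, on day 8 of each inducer and on day 16 of SDS and KCl were lost when 1 library was left out. All of these except SDS day 16 were also lost with voom weights. In the order of its 26 group means, 2 steps were between groups whose libraries did not overlap, from KCl day 0 to SDS day 0 and from there to RS, and the first of these follows from the value for which LUCAT1 was picked. The other 23 of 25 neighbouring pairs overlapped.

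Known NRF2 targets give a context for the day 0 values, since LUCAT1 is one in other cells. On SDS day 0, 8 of 10 NRF2 targets tested were higher and 1 lower, with a median difference of 1.03 beside -0.03 for all genes, of which 55.7% were called. HMOX1, which degrades heme, differed by 3.20 (SE 0.26), SLC7A11, the cystine importer, by 2.39 (SE 0.23), and OSGIN1 by 1.63 (SE 0.17). On DXR day 0, 2 of the 10 were higher and 1 was lower, with a median of 0.06, beside 40.4% of all genes called. Mean levels on KCl day 0 were 2920 for HMOX1 against 1500 in untreated cells and 16700 against 8340 for SLC7A11, while SDS day 0 had 13400 and 43400. Over the 26 groups HMOX1 and SLC7A11 were thus highest on SDS day 0 and LUCAT1 on KCl day 0. HMOX1 and SLC7A11 are named for their SDS day 0 differences and LUCAT1 was picked on KCl day 0, so this contrast is a description. Directly between KCl and SDS day 0, 3 of the 10 targets were higher with KCl and 6 lower, beside 64.0% of all genes called. Between KCl and DXR day 0, 9 were higher with KCl and 0 lower, with a median of 0.77, beside 61.0% of all genes called. From day 2 to day 8 the NRF2 list had more members lower than higher in each inducer. An example is SDS day 3, with 7 lower and 0 higher of 10 beside 21.2% of all genes called.

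PURPL (ENSG00000250337.5, chromosome 5, 27472292 to 27496401, plus strand) was the member with the strongest lasting difference. It was at 18.0 and 42.1 in the untreated libraries, from 11 and 21 reads, and these 2 values differ 2.34-fold. RS cells held 602 and 462, a mean 17.7 times the untreated one and a log2 difference of 4.21 (SE 0.42, adjusted p = 1.15e-09). DXR day 0 held 304 and 293, a difference of 3.39 (adjusted p = 1.07e-07), and KCl day 0 held 284 and 223, without a test. SDS day 0 held 42.1 and 45.0, near the higher untreated value, and was not called (difference 0.64, adjusted p = 0.207).

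The courses are given per inducer, and the inducers were tested against each other on days 0 and 16 only. In DDR-Sen PURPL was called higher on all 8 days, with differences of 2.27 to 3.39, and in Ca2+-Sen on all 7 days tested, with 1.24 to 2.95. On KCl day 1 its libraries were down to 64.3 and 68.7 before they reached 238 and 203 on day 8. In PMD-Sen it was at 52.5 and 48.7 on day 1 and 49.7 and 42.1 on day 2, neither called, and was called from day 3 on, when it held 84.8 and 47.3 (difference 1.17, adjusted p = 0.0464). SDS day 16 held 168 and 97.2 (difference 2.17, adjusted p = 0.000107), KCl day 16 held 155 and 192 (2.60, adjusted p = 7.65e-05) and DXR day 16 held 333 and 201 (3.18, adjusted p = 2.75e-07).

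These values depend on the untreated library with the lower count. Without it the RS difference was 3.62, and the calls of PMD-Sen days 3, 4 and 6 (0.58, 1.29 and 0.96) and of Ca2+-Sen days 1, 2 and 3 (0.65, 1.02 and 1.55) were lost, with adjusted p of 0.0502 to 0.479. The day 6 libraries of PMD-Sen held 140 and 48.6, and without the first of them that call was lost as well. All 8 DDR-Sen calls were kept under each alternative run.

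**Figure D2:**
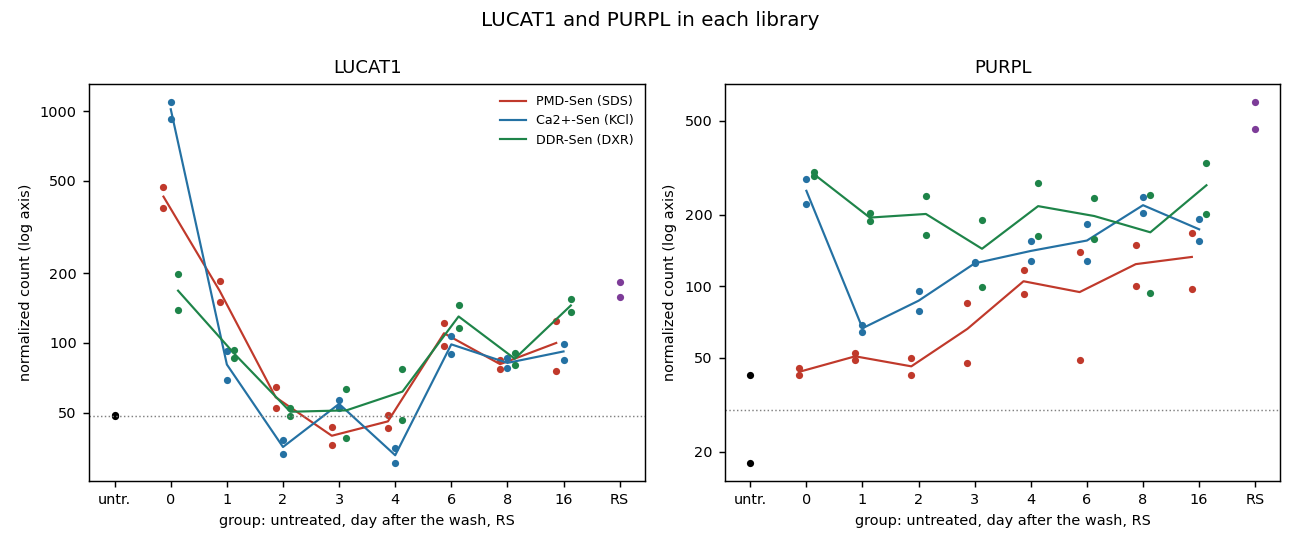
Normalized read count of LUCAT1 (left) and PURPL (right) in each library on a log axis. Points are libraries, lines join the 2-library means of each inducer over the days after the wash, and the dotted line is the untreated mean. LUCAT1 peaks on day 0 and its libraries lie between 30.4 and 76.9 on days 2 to 4, while PURPL stays near its untreated level in PMD-Sen until day 2 and is highest in RS.

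PURPL was read beside other p53 targets. Of the 14 tested genes on a list of p53-linked RNAs and p53 targets, PURPL included, 14 were higher on DXR day 0, with a median of 1.76 beside -0.01 for all genes, of which 40.4% were called. GDF15, a secreted stress factor, differed by 3.80 (SE 0.14), TP53I3 by 3.08 (SE 0.16), BTG2 by 2.09 (SE 0.12) and CDKN1A, the p21 cell cycle inhibitor, by 2.08 (SE 0.078). On SDS day 0, 4 were higher and 6 lower beside 55.7% of all genes, with a median of 0.00. GDF15 was among those higher, by 4.07 (SE 0.14), and TP53I3 (-0.90, SE 0.16), BTG2 (-0.84, SE 0.12) and SESN1 (-0.75, SE 0.092) were among those lower. On SDS day 4, 11 of the 14 were higher and 0 lower, beside 24.3% of all genes called. RS cells, in which PURPL was highest, had 7 higher and 0 lower beside 47.3% of all genes, with a median of 0.32, and CDKN1A at 0.63 (SE 0.078).

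SNHG1 and SNHG12 were the members called lower only. SNHG1 (ENSG00000255717.6, chromosome 11, 62851988 to 62855914, minus strand) was at 1270 and 1090 in untreated cells and at 1240 and 1120, 1120 and 1330, and 1100 and 1130 on day 0 of SDS, KCl and DXR. These ranges overlap. From day 1 every library of every treated group was below both untreated ones, with 828 and 735, 774 and 824, and 688 and 607 on day 1 (differences -0.60, -0.56 and -0.87, adjusted p = 0.00109, 0.00423 and 9.14e-06). The lowest group was RS with 393 and 396, a difference of -1.58 (SE 0.14, adjusted p = 4.09e-11). On day 16 the differences were -1.08 in PMD-Sen, -0.85 in Ca2+-Sen and -1.19 in DDR-Sen (adjusted p = 1.42e-07, 6.11e-05 and 1.65e-08). SNHG1 was called lower in 21 of 24 comparisons, all but SDS day 0, DXR day 0 and KCl day 2 (870 and 927, adjusted p = 0.0812). The calls of SDS day 2 and KCl days 1 and 4 were lost without the larger untreated library.

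SNHG12 (ENSG00000197989.14, chromosome 1, 28578538 to 28583132, minus strand) was lower in 8 of 24 comparisons and higher in none. Its levels were 325 and 284 in untreated cells, 218 and 174 on SDS day 0 (difference -0.64, SE 0.18, adjusted p = 0.004), 304 and 319 on KCl day 0, and 302 and 334 on DXR day 0. On this day SDS was thus the inducer with SNHG12 below the untreated pair. RS cells held 168 and 179 (difference -0.81, adjusted p = 0.000551). The further calls were SDS days 3, 6 and 16 (-0.52, -0.64 and -0.67), KCl day 8 (-0.49) and DXR days 6 and 16 (-0.52 and -0.53). Of the 8 calls, those of RS and SDS day 16 were kept whichever library was left out. SNHG12 shares 8 exon bases with TRNAU1AP on the opposite strand, and whether the counting used strand is not given in the sources used here.

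GAS5 (ENSG00000234741.7, chromosome 1, 173863900 to 173868882, minus strand), named for its build-up in growth-arrested cells, was called higher in 1 comparison and lower in 4. On SDS day 0 it rose to 4370 and 4570 from 2870 and 2980 in untreated cells (difference 0.61, SE 0.12, adjusted p = 5.67e-05), while KCl day 0 held 1920 and 2110 and DXR day 0 held 2330 and 2370 (-0.31, adjusted p = 0.0338). A day later SDS cells held 2060 and 1910, below the untreated pair (-0.56, adjusted p = 0.000525). From day 2 to day 8 it was called in no inducer, with differences of -0.31 to 0.07. DXR day 16 and RS were lower, with differences of -0.38 and -0.71 (adjusted p = 0.00904 and 1.02e-05). RS held 2140 and 1500. Both DXR calls were lost when 1 untreated library was left out.

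**Figure D3:**
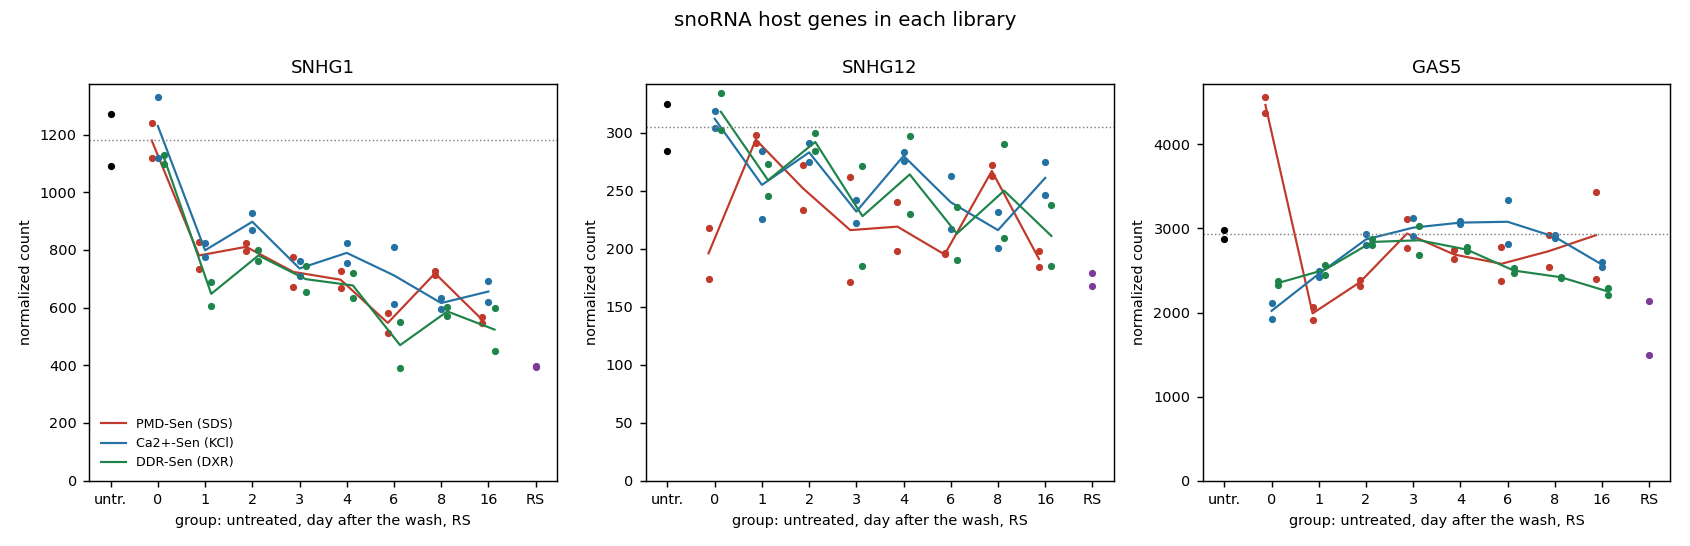
Normalized read count of the host genes SNHG1, SNHG12 and GAS5 in each library, on linear axes from 0, with 2-library means joined over the days and the untreated mean dotted. SNHG1 is below its untreated level of 1180 from day 1, and GAS5 is at 4470 on SDS day 0 alone.

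The 3 host genes belong to a list of 21, of which 19 were tested. On SDS day 0, 11 of the 19 were higher and 4 lower beside 55.7% of all genes, with a median of 0.41. GAS5 was with the first, along with SNHG8 (1.10, SE 0.11), SNHG5 (0.93, SE 0.11) and EPB41L4A-AS1 (0.88, SE 0.16), and SNHG12 with the second, along with SNHG4 (-1.25, SE 0.18), SNHG19 (-0.78, SE 0.17) and SNHG3 (-0.46, SE 0.11). In RS, 2 were higher and 11 lower beside 47.3% of all genes, with a median of -0.43, SNHG3 (-1.22, SE 0.11) and SNHG19 (-1.20, SE 0.17) among them. Day 16 gave 3 higher and 9 lower in PMD-Sen beside 43.8% of all genes called in either direction, 0 and 6 in Ca2+-Sen beside 16.4%, and 1 and 10 in DDR-Sen beside 47.0%. In every tested comparison with untreated cells the median difference of all genes was between -0.03 and 0.03. SNHG7, named after its values were seen, was higher in RS and on day 16 of PMD-Sen and DDR-Sen, by 0.27, 0.45 and 0.56.

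NEAT1 (ENSG00000245532.8, chromosome 11, 65422774 to 65445540, plus strand) was called in 2 comparisons, both higher. The untreated libraries held 3920 and 3720. KCl day 8 held 10100 and 8600, a difference of 1.29 (SE 0.30, adjusted p = 0.000791), and DXR day 16 held 9860 and 5480, a difference of 0.94 (adjusted p = 0.00973). SDS day 16 held 6890 and 5520 and KCl day 16 held 5160 and 7370. All lay above the untreated pair, but neither was called (0.69 in both, adjusted p = 0.0598 and 0.11). The lowest group was SDS day 2 with 2420 and 2540 (-0.62, adjusted p = 0.141). The 2 libraries of a group differed by a median of 1.36-fold, more than for any other member, and the DXR day 16 call was lost when 1 library was left out. Short and long NEAT1 RNAs share their beginning and have a single value in the tables.

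The RNAs of proteins that build paraspeckles with NEAT1 were called lower for 4 to 12 of 12 genes in each comparison with untreated cells, where 5.30% to 55.7% of all genes were called. In RS, 11 of 12 were lower and none higher, with a median of -0.62, beside 47.3% of all genes, and on DXR day 6 all 12 were lower beside 36.4%. In RS RBM14 differed by -1.06 (SE 0.097) and SFPQ, an RNA-binding core protein of paraspeckles, by -1.02 (SE 0.096). On KCl day 8, when NEAT1 was highest, 10 of 12 were lower beside 43.1% of all genes, with a median of -0.42.

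MALAT1 (ENSG00000251562.8, chromosome 11, 65497688 to 65506516, plus strand) is the most abundant member, at 2400 normalized counts per kb of exon in untreated cells beside 168 for NEAT1, 806 for GAS5 and 2.94 for LUCAT1. Its reads could be divided between libraries in 11 of the 26 groups, and elsewhere the group mean alone is known. The untreated libraries held 23000 and 19400. KCl day 8 held 45400 and 32400 (difference 0.86, SE 0.21, adjusted p = 0.0028) and KCl day 0 held 34100 and 36500, without a test. SDS day 3, with a mean of 13500, was lower (-0.65, adjusted p = 0.0344). Both calls were lost when 1 library was left out, and the second also with voom weights. Its other 22 tested differences, from -0.55 to 0.50, were not called.

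MIR31HG (ENSG00000171889.3, chromosome 9, 21455642 to 21559669, minus strand) was called higher on days 1 and 2 after SDS. It was at 386 and 336 in untreated cells and 301 and 452 on SDS day 0, then at 1030 and 1190 on day 1 (difference 1.62, SE 0.34, adjusted p = 0.000467) and 1030 and 771 on day 2 (1.31, adjusted p = 0.00663). The day 2 call was lost when 1 library was left out. On SDS day 4 it was at 246 and 353, and on SDS day 6 at 512 and 626, again above the untreated pair but not called (0.65, adjusted p = 0.148). KCl day 1 held 649 and 694, above the untreated pair but not called (0.90, adjusted p = 0.0664), and DXR day 1 held 461 and 538 (0.47, adjusted p = 0.321). KCl day 8 was the one group called lower, with 134 and 124 (-1.48, adjusted p = 0.000691). The RS libraries held 758 and 247, a 3.07-fold gap that was the largest for any member and group, and RS was not called (0.26, adjusted p = 0.551).

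MIR31HG belongs to a list of 10 microRNA host genes, of which 8 were tested. On SDS day 1, 1 of them was higher, MIR31HG itself, and 2 were lower, beside 30.9% of all genes called. DXR day 6 had 0 higher and 6 lower beside 36.4%, with a median of -0.65. RS had 0 and 4, a share close to the 47.3% of all genes, with a median of -0.44. MIR155HG (-2.53, SE 0.43), MIR17HG (-1.79, SE 0.66) and MIR137HG (-1.03, SE 0.25) were those with the largest differences in RS. The pseudogene IFNWP19 overlaps 40.7% of the MIR31HG exons on the opposite strand, and it was at 0.319 on average.

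PVT1 (ENSG00000249859.9, chromosome 8, 127794533 to 128101253, plus strand), the neighbour of MYC, moved within a narrow band. It held 322 and 338 in untreated cells, 590 and 603 on KCl day 0, and 445 and 579 on DXR day 0 (difference 0.62, SE 0.11, adjusted p = 3.14e-05). On PMD-Sen days 2, 3 and 4 it was higher by 0.33, 0.31 and 0.39 (adjusted p = 0.0318, 0.0418 and 0.00877), from 428 and 403, 378 and 444, and 488 and 385. The PMD-Sen calls were lost without the larger untreated library. PVT1 was called in 4 of 24 comparisons, on none of the later KCl days and not in RS, which held 301 and 346. KCl day 0, its highest group with a mean of 597, was not tested. MYC differed by 0.52 (SE 0.11) on SDS day 0 and by -0.35 (SE 0.11) on DXR day 0.

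CDKN2B-AS1 (ENSG00000240498.7, chromosome 9, 21994778 to 22121097, plus strand), also known as ANRIL, was the scarcest member. It held 27.8 and 30.0 in untreated cells, from 17 and 15 reads, and between 17.1 and 34.4 as a mean in every group. It was called in 0 of 24 comparisons with untreated cells by limma, in 0 at an unadjusted p under 0.05, and in 0 by limma with voom weights. The RS libraries held 16.6 and 30.4, and the interval of the RS difference ran from -1.07 to 0.38 on the log2 scale. In the order of its group means all 25 neighbouring pairs overlapped. The genes at its locus did change in RS: CDKN2B, which encodes p15, by 2.19 (SE 0.24), CDKN2A, which encodes p16 and ARF, by 1.56 (SE 0.11) and MTAP by -0.62 (SE 0.11). CDKN2A exons overlap 4.25% of the CDKN2B-AS1 exon bases on the opposite strand. Over the 10 listed neighbours of the members, RS had 3 higher and 3 lower with a median of 0.19, beside 47.3% of all genes called. SDS day 0 had 5 and 1 with a median of 0.24, beside 55.7%.

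**Figure D4:**
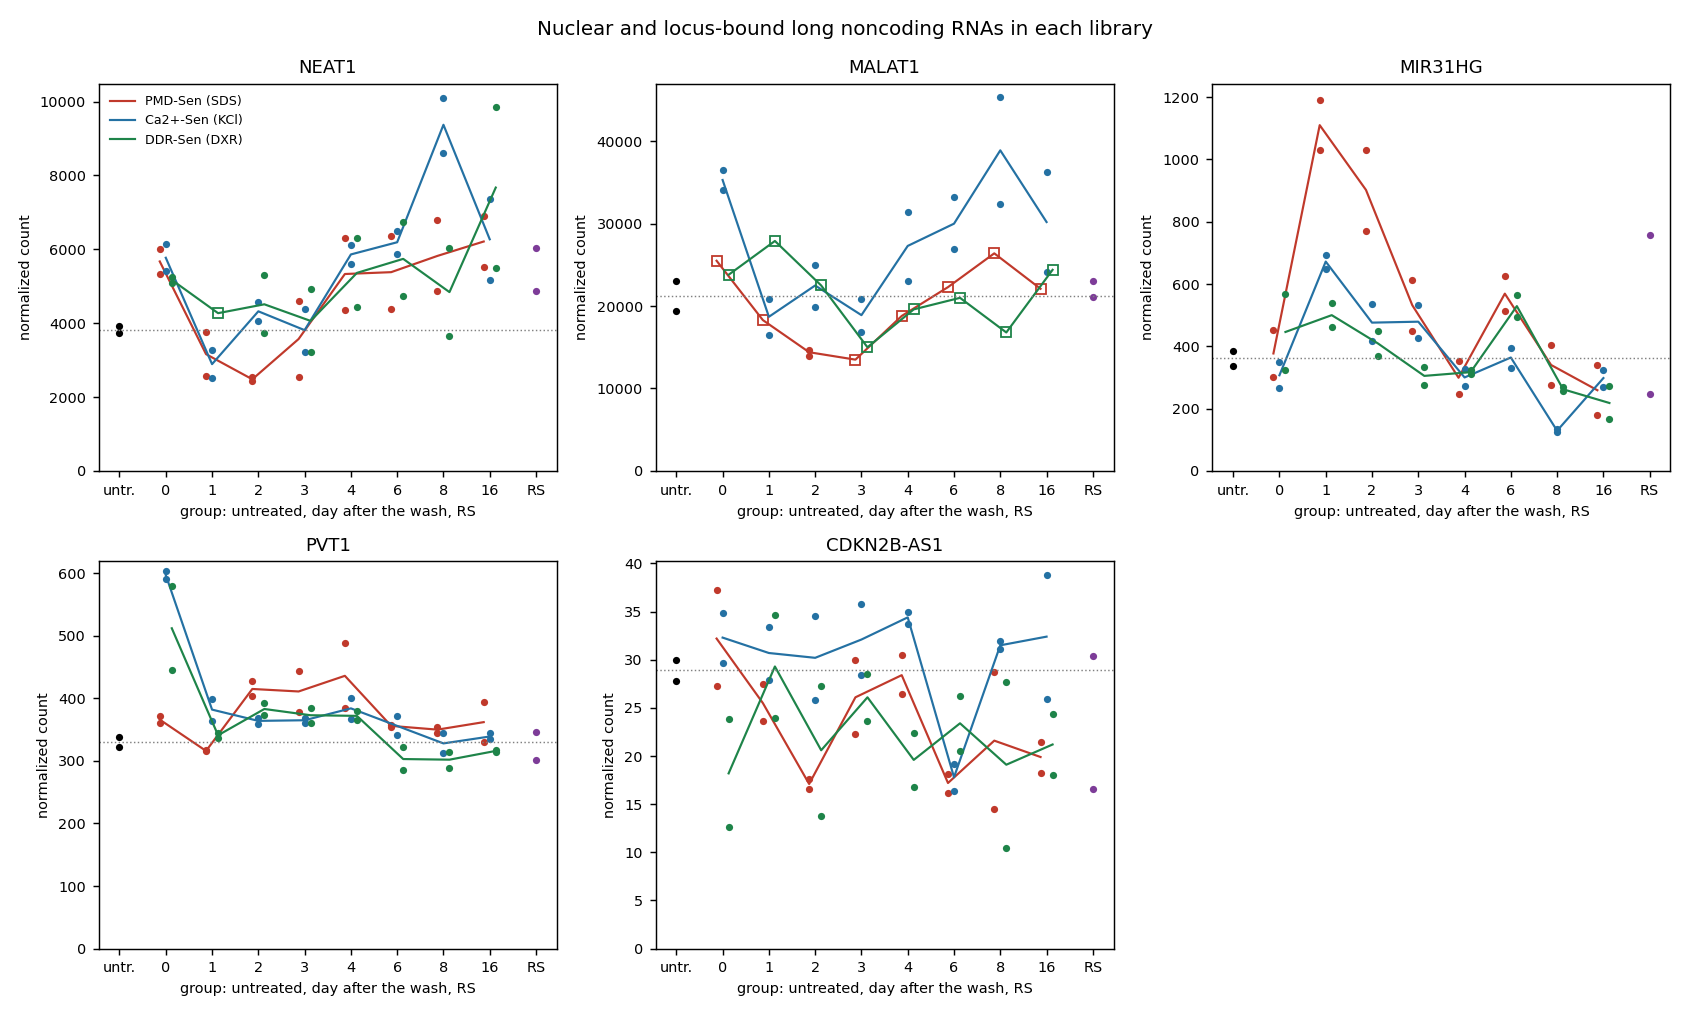
Normalized read count of NEAT1, MALAT1, MIR31HG, PVT1 and CDKN2B-AS1 in each library, on linear axes from 0. Points are libraries and open squares are group means whose libraries could not be told apart, lines join group means over the days, and the dotted line is the untreated mean. NEAT1 and MALAT1 are highest on KCl day 8 and MIR31HG on SDS day 1.

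As a wider background, a list of 15 other long noncoding RNAs, 11 of them tested, had 3 higher and 0 lower in RS beside 47.3% of all genes called, 4 and 2 on SDS day 0 beside 55.7%, and 6 and 1 on KCl day 8 beside 43.1%. NORAD, MEG3 and OIP5-AS1 were those higher in RS, by 0.74 (SE 0.13), 0.81 (SE 0.21) and 0.29 (SE 0.075). The fibroblast markers moved too: 6 of 9 were lower and 1 higher on SDS day 0, beside 55.7% of all genes called. On SDS days 1 and 2, 7 were lower, beside 30.9% and 20.6%. In RS 4 were higher and 1 lower, beside 47.3%. Of the markers of other cell types 3 were tested. PECAM1 was higher on each of the 8 DXR days, by 2.16 to 3.15 (SE 0.79), and in RS VWF was higher (0.90, SE 0.32) and EPCAM lower (-3.25, SE 0.50), both at means under 100.

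The inducers were then compared directly on day 0. Between KCl and SDS, 4 of the 9 members tested were called, where 64.0% of all genes were. PURPL was higher with KCl by 2.50 (SE 0.42, adjusted p = 5.42e-06), PVT1 by 0.70 (SE 0.11, adjusted p = 1.48e-06) and SNHG12 by 0.67 (SE 0.18, adjusted p = 0.00205), and GAS5 was lower by 1.15 on the log2 scale (difference -1.15, SE 0.12, adjusted p = 5.26e-10). LUCAT1 was 2.37 times as high with KCl as with SDS, without a test. The SNHG12 call was lost when 1 library was left out.

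DXR and SDS gave 5 of 10 members called beside 56.6% of all genes. PURPL differed by 2.75 (SE 0.42, adjusted p = 1.69e-06), PVT1 by 0.47 (adjusted p = 0.000507) and SNHG12 by 0.70 (adjusted p = 0.00172), all higher with DXR, while GAS5 (-0.92, adjusted p = 6.54e-08) and LUCAT1 (-1.36, adjusted p = 1.19e-05) were lower. The PVT1 call was lost when 1 library was left out. Both comparisons use the same SDS libraries, and in neither was the share of members called above that of all genes. KCl and DXR gave 2 of 9 beside 61.0%. MALAT1 was higher with KCl by 0.57 (SE 0.21, adjusted p = 0.0249) and CDKN2B-AS1 by 0.85 (SE 0.37, adjusted p = 0.0464), the latter from 34.9 and 29.7 against 23.8 and 12.6. Both calls were lost when 1 library was left out and also without the filter on low values. For MALAT1 on DXR day 0 the group mean alone is known. PURPL did not separate KCl from DXR on this day, with a difference of -0.24 and an interval from -1.08 to 0.59.

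Fewer members were called between inducers on day 16. KCl and SDS differed in 0 of 10 members, where 23.2% of all genes were called. By limma 1 member had an unadjusted p under 0.05, and by limma with voom weights 0 were called. DXR and SDS differed in 0 of 10 beside 5.19% of all genes, with 3 at an unadjusted p under 0.05 and 0 by limma with voom weights. KCl and DXR differed in 1 beside 27.8%: LUCAT1, lower with KCl (-0.65, SE 0.24, adjusted p = 0.038), a call lost when 1 library was left out or without the filter on low values. PURPL is not shown to be alike on this day, as its interval between DXR and SDS ran from 0.18 to 1.84.

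RS cells were the last group to be compared with day 16. SDS day 16 differed from RS in 4 of 10 members beside 19.7% of all genes: PURPL (-2.04, SE 0.42, adjusted p = 0.000918) and LUCAT1 (-0.80, SE 0.24, adjusted p = 0.0158) were lower after SDS, and GAS5 (0.68, SE 0.12, adjusted p = 0.000132) and SNHG1 (0.50, SE 0.14, adjusted p = 0.00894) were higher. KCl day 16 differed in 5 beside 29.1%: PURPL (-1.60, adjusted p = 0.00433) and LUCAT1 (-0.88, adjusted p = 0.0049) were lower, and GAS5 (0.52, adjusted p = 0.0011), SNHG1 (0.73, adjusted p = 0.000114) and SNHG12 (0.58, adjusted p = 0.0164) higher. Leaving out 1 library lost the calls of PURPL, LUCAT1 and SNHG1 for SDS and of LUCAT1, GAS5 and SNHG12 for KCl. DXR day 16 differed from RS in 0 of 10 beside 3.43%, with 4 at an unadjusted p under 0.05 by limma and 1 called with voom weights. For PURPL that interval ran from -1.86 to -0.19. These comparisons share the RS libraries.

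**Figure D5:**
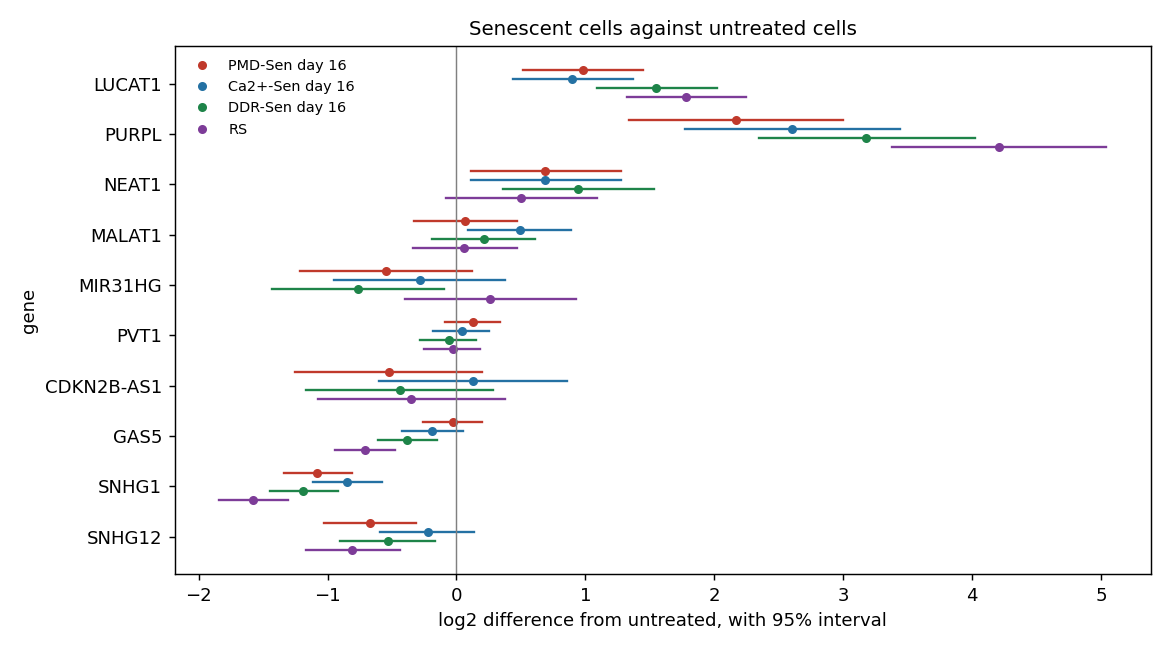
Log2 difference of each member from untreated cells in PMD-Sen, Ca2+-Sen and DDR-Sen on day 16 and in RS, with 95% intervals from limma. LUCAT1 and PURPL lie to the right of 0 in all 4 groups and SNHG1 to the left, with RS the farthest from 0 for these 3 members.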

How the data were processed

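WI-38 mRNA libraries (2 per group, 26 groups, 52 files) were grouped by the labels. The authors deposited tables of their own comparisons with untreated cells, 25 of them distinct. Only 1 column was used, a signal that the authors made by dividing read counts by DESeq2 size factors and averaging them over the 4 libraries of a table before they deposited it. The other columns of the authors hold log2 fold changes, standard errors, test statistics, p-values and adjusted p-values, and were not used. The submitters' processing notes name Trim Galore, HISAT2, HTSeq, featureCounts, DESeq2, GRCh38 and hg38. Versions, gene annotation, strand setting and library preparation are not given in the sources used here.

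A mean of counts divided by size factors is a sum of whole reads, each worth a fixed step per library, and the untreated libraries enter every table. The steps were read from genes with 1 read, and the reads of each library were solved for with Python 3.11.15. Of genes above 0 at least 99.98% had 1 solution in the 10 tables with full precision, and 98.6% to 99.32% in the 15 rounded ones, except 90.36% for DXR day 1. On simulated tables all 703436 gene and table pairs with 1 solution were recovered as drawn (59408 genes, 25 tables). Where several solutions fit, as for MALAT1 in 15 groups and NEAT1 on DXR day 1, both libraries got the group mean and the group added nothing to the spread. Which library is which labelled replicate cannot be told from the tables.

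Reads were scaled by median-ratio size factors over 12865 genes. Of all genes, 15607 had a mean normalized count of at least 10 and were fitted with limma 3.58.1 (R 4.3.3, intensity trend) on log2(normalized count + 1) over all 52 libraries, with Benjamini-Hochberg adjustment within a comparison and calls at an adjusted p under 0.05. Intervals are 95%. In simulated data with 200 changed genes for SDS day 0, limma called 49.2%, 73.5% and 94% of those changed 1.5-, 2- and 4-fold, and 8.7% to 11.7% of its calls were unchanged genes. Alternatives were library totals, a pseudocount of 5, no filter or a mean of at least 100, voom weights, only the 2 groups compared, and leaving out each library.

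The members and gene lists were chosen with earlier results of these data known. Named were the 10 members, the 2 to 4 genes of a list that differed most, and for each member the 3 genes of a mean of at least 100 with the highest Pearson correlation over the 26 groups. Gene models are GENCODE release 29, matched by symbol, and sequences are from RefSeq (GRCh38.p14). Some genes that these rules would name are not reported here.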

Additional observations from a re-analysis of the deposited data

Results flagged for a closer look

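Each result here is a member whose levels differed between 2 inducers on the same day, or between day 16 of an inducer and RS, by limma with an adjusted p under 0.05. The values are log2 differences. They are grouped by member, since the comparisons share libraries, and no explanation was tested.

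PURPL was higher on day 0 with KCl than with SDS (2.50) and with DXR than with SDS (2.75), and lower than in RS on day 16 after SDS (-2.04) and KCl (-1.60). LUCAT1 was lower with DXR than with SDS on day 0 (-1.36), lower with KCl than with DXR on day 16 (-0.65), and lower than in RS on day 16 after SDS (-0.80) and KCl (-0.88). GAS5 was lower than with SDS on day 0 with KCl (-1.15) and DXR (-0.92), and higher than in RS on day 16 after SDS (0.68) and KCl (0.52).

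SNHG12 was higher than with SDS on day 0 with KCl (0.67) and DXR (0.70), and higher than in RS after KCl (0.58). SNHG1 was higher than in RS on day 16 after SDS (0.50) and KCl (0.73). PVT1 was higher than with SDS on day 0 with KCl (0.70) and DXR (0.47). MALAT1 (0.57) and CDKN2B-AS1 (0.85) were higher with KCl than with DXR on day 0. Leaving out 1 library lost the calls of CDKN2B-AS1, MALAT1, SNHG12 between KCl and SDS on day 0, PVT1 between DXR and SDS on day 0, and LUCAT1 between KCl and DXR on day 16. Against RS it lost those of PURPL, LUCAT1 and SNHG1 on SDS day 16 and of LUCAT1, GAS5 and SNHG12 on KCl day 16. Without the filter on low values the calls of CDKN2B-AS1, MALAT1 and LUCAT1 between KCl and DXR were lost as well.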

How the results depend on the processing

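Of 102 called member differences, 58 were kept under every alternative run counted for them, and none changed sign. Leaving out 1 library lost 42 of the 102, no filter 15, library totals 5, and a pseudocount of 5 lost 2. The other 3 alternatives were counted for the 81 calls against untreated cells alone. Of these 81, voom weights lost 17, only the 2 groups compared 14, and a mean of at least 100 lost 0. The 81 calls against untreated cells became 60 without the untreated library with more reads and 72 without the one with fewer, with a range of 60 to 86 over all libraries left out, 64 with voom weights, 69 without the filter and 89 with only the 2 groups compared. The 21 between inducers and with RS ranged from 18 to 25. Per inducer, leaving out an untreated library gave 18 to 26 for PMD-Sen (main 29), 14 to 18 for Ca2+-Sen (main 21), 23 for DDR-Sen (main 26) and 5 for RS. A log2 difference of at least 1 left 12 in PMD-Sen, 10 in Ca2+-Sen, 14 in DDR-Sen and 3 in RS. PURPL, PVT1, SNHG12, LUCAT1 and SNHG1 held most of the 21 calls lost without the larger untreated library. Only the 2 groups compared also called 22 differences that the fit of all libraries did not, and the cause was not tested. No paired analysis was possible because the tables do not tell which library is which labelled replicate. CDKN2B-AS1 and untreated PURPL rest on 11 to 21 reads per untreated library, which limits what their tests can separate.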

Other observations

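The genes whose levels were most like each member are given as a description over 26 group means, with no test. All groups share 1 line, and the 8 days of an inducer follow each other. LUCAT1 was most like CEBPB (Pearson r = 0.906), AFTPH (0.886) and POR (0.885), and these values include the KCl day 0 mean for which LUCAT1 was picked. PURPL was most like PTCHD4 (0.871), at 181 in untreated and 1390 in RS cells, then RABL2A (0.862) and ITM2B (0.861). MIR31HG was most like LPXN (0.953), PSMD2 (0.922) and MMP1 (0.920), and the collagenase MMP1 stood at 61800 on SDS day 1 beside 5800 in untreated cells.

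SNHG1 was most like SNHG3 (0.905), another snoRNA host, then TMA16 (0.886) and NAA16 (0.882). SNHG12 followed BAZ1A (0.832), IER5 (0.825) and ZNF280C (0.782), while GAS5 followed OPLAH (0.849), ROBO3 (0.832) and TRIM25 (0.823), and these 3 were highest on SDS day 0. MALAT1 was most like FTX (0.848), PNISR (0.814) and CCNL1 (0.797). NEAT1 was most like SLC25A27 (0.889), at 44.8 in untreated cells and 311 on KCl day 8, then ZNF37BP (0.883) and PCBP1-AS1 (0.880). PVT1 was most like AL353150.1 (0.849), AEN (0.846) and AVPI1 (0.818), and these were highest on KCl day 0. For CDKN2B-AS1 the highest values were lower, with PRKD3 (0.676) and SCD (0.641).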
